A study of Mus musculus with 100 samples.

Results

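The gene set described here is 10 mouse genes of leukocytes and macrophages: Ptprc, Spi1, Csf1r, Hk3, Arhgap45, C1qa, C1qb, Tyrobp, Fcer1g and Marco. They are 10 of 23109 gene-level entries in 37 RNA sequencing libraries, and all 10 were found. They were chosen with earlier results of these data known, first of all their levels in neural cultures and in embryoid bodies at day 10. The members' levels in neural cultures, stem cells and embryoid bodies are therefore described without a test. Members are tested only in other cultures and in embryos, where the tests may not be fully independent of the choice either. A level is in CPM, the usual depth-scaled read count: the reads of a gene's most-read transcript over the library's total for all genes.

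The study asked what the enzymatic activity of the histone methyltransferases MLL3 and MLL4 contributes to embryonic stem cell differentiation and to early mouse embryos. In all cultures, both genotypes lacked Mll3: the flox lines were Mll3-/-;Mll4flox/flox, and the KI lines were Mll3-/-;Mll4KI/KI, in the form of clones 27 and 48. Embryonic stem cells (day 0), embryoid bodies (EBs, aggregates in suspension without LIF, days 4 and 10) and neural cultures (aggregates treated with 5 µM retinoic acid after day 4 and plated at day 8; sampled at days 8 and 16) made up the first experiments. The EB course had 1 flox library and 2 KI libraries per day, and the neural course 2 of each per day. Trophectoderm-directed cultures (TE) carried a doxycycline-inducible lentiviral CDX2 and were sampled at day 6, and extraembryonic endoderm-directed cultures (ExEn) were given activin A at 10 ng/mL with 0.1 µM retinoic acid and taken at day 5. Both had 2 flox libraries and 1 library of each KI clone. Whole embryos of stages E8.5 and E9.5 were Mll3flox/KI;Mll4flox/KI;Sox2-Cre (KI) or Mll3flox/KI;Mll4flox/+;Sox2-Cre (control), with 3 of each per stage. Sox2-Cre acts in the epiblast, so the KI allele is left alone in cells of the embryo proper. By these genotypes the control embryos are likewise left with the Mll3 KI allele alone, and with 1 intact Mll4 allele. Both groups are thus alike at Mll3 and differ at Mll4.

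Leukocytes are marked by CD45, the membrane phosphatase encoded by Ptprc. In macrophages and their precursors the ETS factor PU.1, encoded by Spi1, drives lineage genes, among them Csf1r, the receptor for the growth factors CSF1 and IL-34. Mature macrophages make complement C1q (C1qa and C1qb), signal through the ITAM adaptors DAP12 (Tyrobp) and FcRγ (Fcer1g), and in some tissues carry the scavenger receptor MARCO. The first blood macrophages of the mouse arise in the yolk sac, and embryoid bodies make similar cells.

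Gene-level reads ranged from 18.9 to 59.9 M per library, so that 3 reads equal 0.159 CPM in the shallowest library and 0.05 CPM in the deepest. A gene with 0 reads may thus lie anywhere below those values, which cover counting error only. The transcripts of the modified genes were present in every library: Kmt2c (Mll3) lay between 27.6 and 99.4 CPM in the cultures, which are Mll3 null in both genotypes, and Kmt2d (Mll4) between 149 and 334 CPM. These sums over whole transcripts do not separate an altered allele from an intact one. In the tables every transcript has a read count, and the labels do not say whether strand was used. Nothing in the labels says that replicates came from separate thaws or inductions, so p-values measure the spread between these libraries.

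Ptprc, C1qb, Tyrobp, Fcer1g and Marco exceeded 1 CPM at a single point of the study, EB day 10. In embryonic stem cells and day 4 EBs, Ptprc had 0 to 2 reads per library, and every member other than Arhgap45 lay below 1 CPM. At day 10, Ptprc was at 10.6 CPM in the flox library, 3.94 CPM in KI clone 27 and 37.0 CPM in KI clone 48. In neural cultures, TE and ExEn, C1qa, C1qb, Tyrobp and Marco stayed at 4 reads or fewer in every library. Over all 18 group means, the pairwise correlations among Ptprc, Spi1, C1qa, C1qb, Tyrobp and Fcer1g were 0.94 to 0.99 (Pearson, log2 of CPM plus 0.5, a description that rests on the EB day 10 groups). The heat map of group means shows this column of high values, and also the members that left it.

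**Figure D1:**
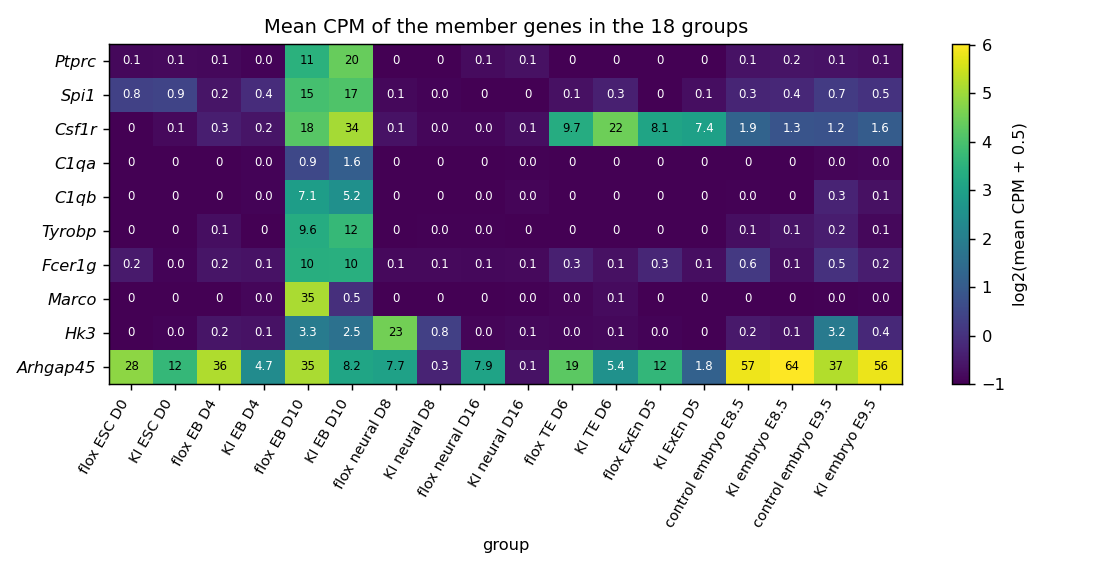
Mean CPM of the 10 genes (rows) in the 18 groups (columns); colour is log2 of mean CPM plus 0.5 and the printed values are mean CPM. The EB day 10 columns are the only ones where Ptprc, C1qb, Tyrobp and Marco exceed 1 CPM in a group, while Arhgap45 is present in most columns, Csf1r in TE and ExEn, and Hk3 in flox neural day 8.

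The order of the 3 day 10 libraries was the same for most members. Spi1 was at 14.9 CPM in flox, 4.45 in clone 27 and 28.8 in clone 48. Csf1r was at 18 CPM in flox, 23.2 in clone 27 and 43.9 in clone 48. Thus clone 48 was above flox and clone 27 below it for Spi1, whereas both clones were above flox for Csf1r. Among the effectors, C1qa was at 0.931, 0.256 and 3.00 CPM in flox, clone 27 and clone 48, and C1qb, its partner chain in the C1q molecule, was at 7.06, 0.358 and 10.1 CPM. The adaptor Tyrobp was at 9.62, 3.07 and 21.7 CPM in the same order, and Fcer1g at 10.1, 2.61 and 18 CPM. Hk3, a hexokinase of myeloid cells, was at 3.26, 0.307 and 4.79 CPM. For Ptprc, Spi1, C1qa, C1qb, Tyrobp, Fcer1g and Hk3, clone 48 was highest and clone 27 lowest.

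Per transcript length (the authors' deposited RPKM), the most abundant of the 10 in the flox library at day 10 were Marco at 13.9 RPKM, Tyrobp at 13.5 and Fcer1g at 12.2. Spi1 followed at 8.87 RPKM, Arhgap45 at 7.89, C1qb at 5.28 and Csf1r at 3.68. Ptprc at 1.48, Hk3 at 0.804 and C1qa at 0.683 RPKM were the least abundant. In clone 48 the short adaptors were highest, with Tyrobp at 30.7 RPKM and Fcer1g at 21.8, but Marco was at 0.285 RPKM.

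All 10 members were higher in clone 48 than in clone 27, by 0.78 (Marco) to 3.63 (C1qb) on the log2 scale of CPM plus 0.5. A companion list of 80 further leukocyte and macrophage genes, of which 78 are in the tables, gave the same picture. Of its 72 genes at 1 CPM or more in a day 10 library, 70 were higher in clone 48, with a median log2 ratio of 2.26. Over all 14589 genes at that level, 7041 were higher in clone 48 and the median was -0.01. Both clones are single libraries, so these differences have no replicate check. In a bulk library, fewer cells of a type and less RNA per cell cannot be told apart.

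**Figure D2:**
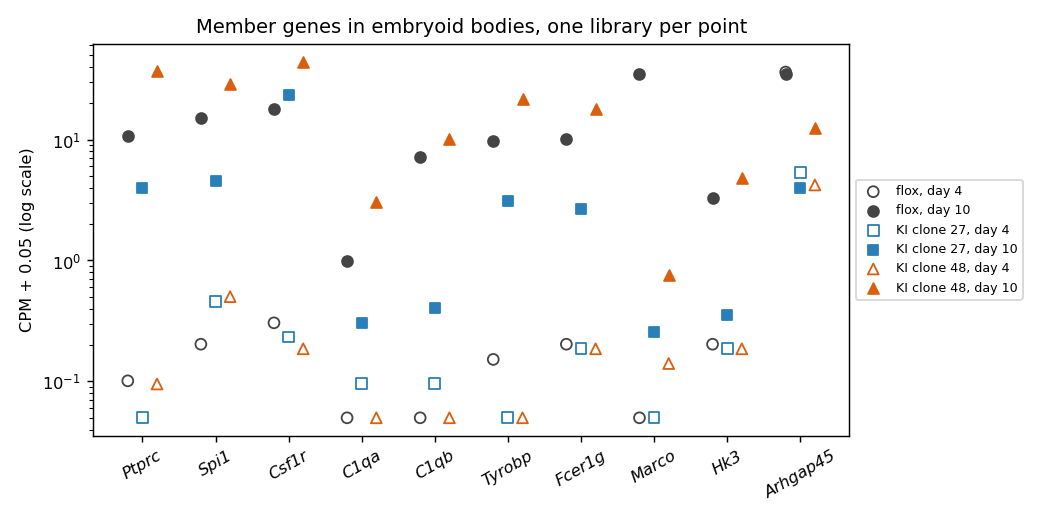
CPM plus 0.05 on a log axis for the 10 genes in EBs, 1 library per point; open symbols are day 4 and filled symbols day 10, for flox, KI clone 27 and KI clone 48. At day 10 clone 48 lies above clone 27 for each gene, and Marco is high only in flox, at 34.8 CPM.

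Against flox, the 2 clones fell on opposite sides for 7 members (Ptprc, Spi1, Hk3, C1qa, C1qb, Tyrobp and Fcer1g). Ptprc was 1.32 lower in clone 27 and 1.76 higher in clone 48 on the log2 scale. The same held for the companion genes at 1 CPM or more, with a median log2 ratio to flox of -1.48 in clone 27 and 0.62 in clone 48, beside 0.01 in each clone over all genes. Of the members, 2 of 10 were at least 2-fold from flox in both clones, Marco and Arhgap45, both lower, where the rule that chose the members used this contrast and 3.91% of all genes were lower by that measure (7.42% in either direction). Of the companion genes, 1 was higher (Tfec, a transcription factor of the MiT family) and 2 were lower (Siglec1 and Tnf). These are near the shares over all genes, 3.5% higher and 3.91% lower, and with a pseudocount of 1 CPM the count was 1 in place of 3.

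**Figure D3:**
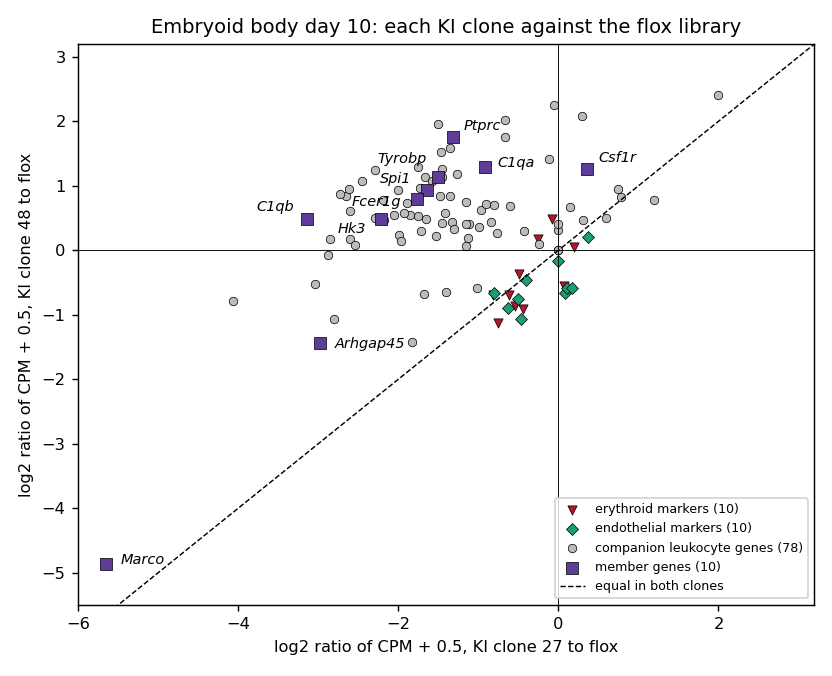
Log2 ratio of CPM plus 0.5 to the flox library at EB day 10, KI clone 27 on the x axis and KI clone 48 on the y axis, 1 point per gene; the dashed line marks equal values in both clones. Most companion genes and 7 members lie upper left (below flox in clone 27, above it in clone 48), while erythroid and endothelial markers lie near the line.

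Most companion genes described here followed the order of Ptprc. Cd53, a pan-leukocyte tetraspanin, was at 7.29 CPM in flox, 2.56 in clone 27 and 22.8 in clone 48. Lyz2, the macrophage lysozyme, was at 20.5, 2.91 and 40.1 CPM. Adgre1, which encodes F4/80, was highest in flox at 19.0 CPM, with 0.665 in clone 27 and 10.8 in clone 48. The third C1q chain, C1qc, was at 4.11, 0.869 and 6.16 CPM, Mpeg1 (perforin-2) at 14.4, 1.74 and 26.7, and Trem2, a receptor that signals through DAP12, at 1.75, 0.205 and 4.42. Cx3cr1, the fractalkine receptor, was at 14.2 CPM in flox, 1.53 in clone 27 and 16.2 in clone 48. Irf8 was at 7.60, 1.53 and 9.04 CPM, Itgb2 at 13.0, 3.58 and 25.9, Laptm5 at 43.9, 15.4 and 79.0, and Coro1a at 29.5, 5.63 and 41.9. Runx1, which is needed for blood emergence, departed from this order, with 29.5 CPM in flox and 50.8 and 52.9 in the clones. The CSF1R ligand Csf1 was at 149, 145 and 128 CPM, and Il34 at 0.698, 0.153 and 0.375.

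Other lineages differed less between the clones at day 10. The summed level of 10 erythroid genes was 509 CPM in flox, 333 in clone 27 and 348 in clone 48, and that of 10 endothelial genes was 750, 638 and 528 CPM. Lymphoid genes summed to 0.46 to 1.4 CPM, with Cd3e, Cd3g and Ms4a1 at 0 reads in the 3 libraries, and granulocyte and mast cell genes to 0.92 to 1.94 CPM, with Elane, S100a9 and Cma1 at 0 reads. Mesothelial and stromal genes did differ, with a summed level of 10600 CPM in flox, 4140 in clone 27 and 10100 in clone 48. Of 10 visceral endoderm markers, 6 were at least 2-fold above flox in both clones (Ttr, Apob, Amn, Dab2, Sox17 and Foxa2), with a summed level of 602 CPM in flox, 1410 in clone 27 and 1150 in clone 48. The part of these levels in the member and companion values, Tfec included, was not tested.

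Marco stood apart from the other members. It was at 34.8 CPM (898 reads) in flox at day 10, at 0.205 CPM (4 reads) in clone 27 and at 0.708 CPM (17 reads) in clone 48. At no other point did a library hold more than 2 Marco reads. Its log2 ratio to flox was -5.65 in clone 27 and -4.87 in clone 48, although clone 48 exceeded flox in 8 of the other 9 members. Of the other phagocytic receptors, Siglec1 was also more than 2-fold below flox in both clones, at 1.28 CPM in flox, 0 in clone 27 and 0.167 in clone 48. Adgre1 (-4.07 in clone 27 and -0.78 in clone 48) and Msr1 (-2.88 and -0.07) were below flox mainly in clone 27, while Mrc1 (-0.06 and 2.25), Cd14 (-1.16 and 0.75) and Trem2 (-1.67 and 1.13) were above flox in clone 48. Of its class A scavenger receptor relatives, Colec12 was at 104 CPM in flox, 33.0 in clone 27 and 50.0 in clone 48, and Scara5 at 2.13, 0.716 and 0.833 CPM. Of 8 mesothelial and stromal markers, 3 were below flox by more than 2-fold in both clones as Marco was: Upk3b was at 209 CPM in flox, 5.73 in clone 27 and 25.2 in clone 48, Wt1 at 148, 14.1 and 28.2, and Msln at 3.14, 0 and 0.0417. The other 5 were not, with log2 ratios in clone 48 of -0.45 (Col1a1), -0.11 (Dcn), 0.03 (Pdgfra), 0.29 (Col3a1) and 0.55 (Lum). Their part in the Marco result was not tested.

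Promoter sequence is shown for members that moved together at EB day 10 (Ptprc, C1qb, Fcer1g and Hk3) and for one that did not (Marco). RefSeq windows on GRCm38.p6 were found for 6 of the 10 genes, at 9 start sites. The letters GAGGAA, the core of the sequence that PU.1 binds, were searched on both strands in the 250 bases before each start and are in capitals where found. They occur in 23.3% of the 32851 RefSeq windows of this length, and in 5 of the 9 member windows. The windows are chr1:138175306-138175555 (Ptprc), chr4:136886201-136886450 (C1qb), chr1:171234350-171234599 (Fcer1g), chr1:120505025-120505274 (Marco) and chr13:55021386-55021635 (Hk3), all on the minus strand and written 5′ to 3′.
Ptprc: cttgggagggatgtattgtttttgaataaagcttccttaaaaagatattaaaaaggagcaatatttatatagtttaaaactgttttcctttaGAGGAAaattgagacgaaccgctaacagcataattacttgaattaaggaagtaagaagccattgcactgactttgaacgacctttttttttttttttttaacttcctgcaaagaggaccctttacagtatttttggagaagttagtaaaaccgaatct
C1qb: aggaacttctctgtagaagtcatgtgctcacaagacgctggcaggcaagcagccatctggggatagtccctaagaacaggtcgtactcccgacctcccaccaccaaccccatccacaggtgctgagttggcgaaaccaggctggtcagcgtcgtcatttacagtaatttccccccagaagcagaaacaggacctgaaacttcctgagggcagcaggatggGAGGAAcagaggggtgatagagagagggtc
Fcer1g: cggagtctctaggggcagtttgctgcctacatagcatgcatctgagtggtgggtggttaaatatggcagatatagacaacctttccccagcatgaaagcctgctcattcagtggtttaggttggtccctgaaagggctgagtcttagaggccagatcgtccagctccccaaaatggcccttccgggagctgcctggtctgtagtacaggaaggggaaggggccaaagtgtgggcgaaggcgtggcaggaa
Marco: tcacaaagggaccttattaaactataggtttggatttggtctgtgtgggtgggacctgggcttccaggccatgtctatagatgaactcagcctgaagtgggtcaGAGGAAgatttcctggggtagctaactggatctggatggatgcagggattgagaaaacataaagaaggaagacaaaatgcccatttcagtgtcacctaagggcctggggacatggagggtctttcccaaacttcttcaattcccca
Hk3: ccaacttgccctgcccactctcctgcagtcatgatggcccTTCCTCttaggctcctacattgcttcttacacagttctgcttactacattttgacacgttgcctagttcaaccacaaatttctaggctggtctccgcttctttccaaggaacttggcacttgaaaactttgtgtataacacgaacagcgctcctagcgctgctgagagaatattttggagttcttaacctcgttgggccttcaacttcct
The match began 158 bases before the start in Ptprc, 30 in C1qb and 146 in Marco, and, as the reverse complement TTCCTC, 210 in Hk3. Fcer1g, the second Ptprc start and the first 2 Arhgap45 starts had no match, and the third Arhgap45 start had matches at 221 and 151 bases. A match thus occurred in genes that followed Ptprc at EB day 10 and in Marco, which did not, and it is a description of these letters only.

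Days 4 and 10 were also compared within the KI clones, a comparison added after the data had been seen and on the day 10 values that chose the members. With edgeR's quasi-likelihood test and Benjamini-Hochberg adjustment, 47 of 64 companion genes were called higher at day 10 and 2 lower (Myb and Plcg2), beside 36.7% higher and 36.6% lower (73.3% in all) among all 15676 genes. Of the 64, 26 had 3 reads or fewer in both day 4 libraries, entered the fit only through their day 10 reads and could only be higher, so these counts are a description and support nothing. The median log2 change was 4.52, or 3.88 with those 26 genes set to a floor of 3 reads per library, beside 0 over all genes. Cd53 had no reads at day 4 and 2.56 and 22.8 CPM at day 10, at least 93.0-fold higher against that floor. Csf2rb, the shared chain of the GM-CSF, IL-3 and IL-5 receptors, went from 0 reads to 7.42 and 13.0 CPM, at least 74.8-fold higher. Ctss was at least 70.3-fold, Il1b at least 42.8-fold and Adgre1 at least 42.1-fold higher, all from 0 reads. Runx1 rose by 2.50 (SE 0.11, adjusted p = 1.97e-06), from 8.23 and 9.05 CPM to 50.8 and 52.9. Laptm5 and Coro1a, which had 33.5 to 36.4 and 5.53 to 5.79 CPM at day 4 already, did not pass. Summed levels of other lineages moved in the same libraries. Erythroid genes went from 7.01 to 8.45 CPM at day 4 to 333 to 348 at day 10, and endothelial genes from 91.6 to 97.3 to 528 to 638. Mesothelial and stromal genes went from 52.6 to 64.6 to 4140 to 10100, and pluripotency genes from 1190 to 1250 to 12.4 to 23.0. Their part in the companion values was not tested.

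KI and flox were also compared over the 9 libraries of the EB course with day as a term. Clone was not a term, so each library counted as an independent sample although the same KI clones recur on each day. Of 74 companion genes tested, 1 passed, beside 0.73% of all 16567 genes. This was Myb, a factor of definitive haematopoiesis that is also active in stem cells, at 9.52 CPM in flox and 44.5 and 46.7 in KI stem cells, 16.9 and 43.2 to 43.8 at day 4, and 0.853 and 1.42 to 1.53 at day 10 (log2 change 1.56, SE 0.22, adjusted p = 0.0274). Myb lost this call without either KI library of day 0 or of day 4, and without clone 27 of day 10, with adjusted p from 0.057 to 0.106. By edgeR, 7 companion genes had an unadjusted p under 0.05.

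Hk3 followed the leukocyte genes in EBs but not in neural cultures. In flox neural cultures at day 8 it was at 21.7 and 23.5 CPM (937 and 1201 reads), the highest group level of this gene in the study, while Ptprc, C1qa, C1qb, Tyrobp and Marco had 0 reads in the same libraries. In KI neural cultures at day 8 it was at 0.712 and 0.819 CPM. The groups were far apart, and the fitted log2 difference was -4.84, which is not tested here since the gene was chosen on this contrast. By day 16 no library of either genotype held more than 3 Hk3 reads. Neither of the hexokinase paralogs passed the test at day 8: Hk1 was at 69.8 ± 2.17 CPM in flox and 59.3 ± 5.89 in KI (SD, n = 2; adjusted p = 0.28), and Hk2 at 113 ± 2.29 and 143 ± 28.6 (adjusted p = 0.362). At day 16, Hk2 was lower in KI by 2.23 on the log2 scale (SE 0.25, adjusted p = 0.000271), whereas Hk1 was higher by 0.37 (SE 0.11, adjusted p = 0.0189), with overlapping groups (453 and 504 CPM in KI, 394 and 460 in flox).

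Other genes of blood and vessels were lower beside Hk3 in KI neural day 8. All 10 endothelial markers were lower (Kdr 36.2 and 37.0 CPM in flox against 4.11 and 6.34 in KI), and their summed level was 169 CPM in flox and 37.4 to 44.8 in KI. Of 8 erythroid markers tested, 6 were lower, with a summed level of 16.3 CPM in flox and 3.32 to 3.35 in KI. Lymphoid markers summed to 4.01 CPM in both flox libraries and 3.95 to 5.03 in KI, nearly all of it from Pax5 (mean 3.67 CPM in flox and 4.2 in KI), a B cell factor that neural tissue also uses. Their part in the Hk3 values was not tested. Over the 18 group means, the genes with the pattern most like Hk3 were Colq (Pearson r 0.863), Gpihbp1 (0.853), Th (0.847), Tnfrsf14 (0.831) and Gpr183 (0.815). For Ptprc they were Lilrb4a (0.998), Ccl9, Lilr4b, Cd53 and Clec4n (0.996), so no gene followed Hk3 as closely as many followed Ptprc.

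In embryos Hk3 was tested, since the contrasts named for the choice were not in embryos. Earlier results of these data were known, so the test may not be fully independent of the choice. At E8.5 it was at 0.149, 0.261 and 0.191 CPM in controls and 0.0884, 0.227 and 0.133 in KI embryos, and the groups overlapped (log2 change -0.43, SE 0.79, adjusted p = 0.828). At E9.5 it was at 3.41, 4.68 and 1.39 CPM in controls and 0.414, 0.601 and 0.0884 in KI embryos, and each control exceeded each KI embryo. The difference was -3.08 (SE 0.58, adjusted p = 0.00053). Within controls Hk3 was higher at E9.5 than at E8.5 by 3.86 (SE 0.62, adjusted p = 0.000143). The KI effect at E9.5 less that at E8.5 was -2.65 (SE 1.02), which did not pass (adjusted p = 0.127), so a dependence on stage is not shown. Hk1 and Hk2 went the other way at E9.5, higher in KI by 0.78 (SE 0.12, adjusted p = 0.000261) and 1.25 (SE 0.14, adjusted p = 0.000101). Summed erythroid levels were 3510 to 9680 CPM in E9.5 controls and 644 to 3290 in KI embryos, and 757 to 1540 and 122 to 229 at E8.5. Megakaryocyte and platelet markers were also lower in KI at E9.5 (3 of 5 tested; summed level 17.3 to 35.8 CPM in controls and 10.2 to 12.1 in KI), and Pf4, platelet factor 4, had 0 to 5 reads in E8.5 controls, 2.1 to 8.19 CPM in E9.5 controls and 0 to 0.53 CPM in E9.5 KI. The part of these levels, and of developmental stage, in the Hk3 result was not tested.

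**Figure D4:**
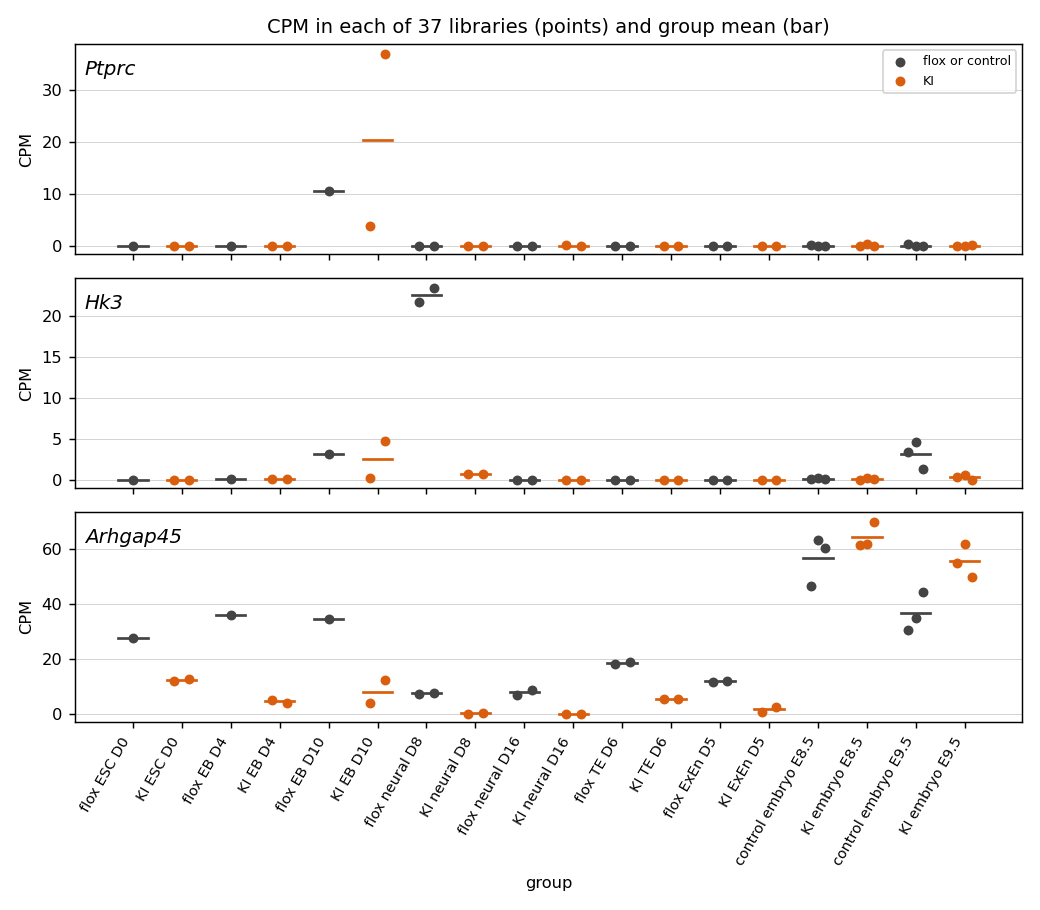
CPM of Ptprc, Hk3 and Arhgap45 in each of the 37 libraries (points) with the group mean (bar), grey for flox or control and orange for KI. Ptprc exceeds 1 CPM only at EB day 10; Hk3 peaks at 21.7 and 23.5 CPM in flox neural day 8; Arhgap45 is lower in KI than in flox in every culture and higher in KI embryos at E9.5.

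Arhgap45 encodes a GTPase-activating protein that carries the minor histocompatibility antigen HA-1 in human leukocytes. It was the one member present in nearly all samples, and its highest group means were in embryos, where Ptprc was at 0.397 CPM or below. The highest means were those of KI embryos at E8.5 (64.4 ± 4.9 CPM, SD, n = 3), control embryos at E8.5 (56.6 ± 8.99) and KI embryos at E9.5 (55.5 ± 6.01), which overlapped. Control embryos at E9.5 (36.8 ± 7.02) were next, close to flox EBs at day 4 (36.1) and day 10 (34.6, 1 library each). Flox stem cells were at 27.7 CPM, flox TE at 18.6 ± 0.269 (n = 2) and flox ExEn at 12.0 ± 0.241. Flox neural cultures were at 7.65 ± 0.324 at day 8 and 7.93 ± 1.43 at day 16, which did not differ beyond their spread. Levels across experiments were not tested against each other.

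In each culture type the KI libraries were below the flox libraries. Stem cells were at 27.7 CPM in flox and 11.9 and 12.7 in KI, and day 4 EBs at 36.1 and 5.25 and 4.16. At day 10, KI clone 27 was at 3.94 CPM and clone 48 at 12.4, against 34.6 in flox. In neural cultures Arhgap45 was at 7.42 and 7.88 CPM in flox and 0.184 and 0.45 in KI at day 8, and at 6.92 and 8.95 against 0.111 and 0.167 at day 16. Arhgap45 was the member past 2-fold in both clones at days 0 and 4, where 2.5% and 4.43% of all genes were lower by that measure (7.68% and 5.88% in either direction). Of companion genes at 1 CPM or more, 9 of 26 were higher and 1 lower at day 0, beside 5.18% and 2.5% of all genes, and 2 of 31 higher and 1 lower at day 4, beside 1.45% and 4.43% (10 in all, in place of 3, with a pseudocount of 0.1 CPM). These values entered the choice of the gene and are not tested.

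TE and ExEn are not named as a basis of that choice, although earlier results of these data were known. In TE, Arhgap45 was at 18.4 and 18.8 CPM in flox and 5.38 and 5.41 in KI (log2 change -1.76, SE 0.25, adjusted p = 6.47e-05). In ExEn it was at 11.8 and 12.2 CPM in flox and 0.938 and 2.63 in KI (-2.79, SE 0.30, adjusted p = 1.19e-05). The groups were separate in both. In TE all 4 pluripotency markers were lower in KI, with a summed level of 601 to 604 CPM in flox and 203 to 284 in KI, as were 5 of 7 mesothelial and stromal markers (94.6 to 97.6 against 29.3 to 40.1). In ExEn all 10 visceral endoderm markers were lower in KI, with a summed level of 1770 CPM in flox and 139 to 145 in KI, and the part of these markers in the Arhgap45 results was not tested. Whether the 2 reductions differed depended on the setting, the difference being 1.04 (SE 0.39) with an adjusted p of 0.0574. With the clone or the flox replicate number as a block it was 1.07 with an adjusted p of 0.0274. The labels pair the flox libraries of TE and ExEn by that number alone, and their deviations correlated at -0.01 for each. Without KI clone 48 of ExEn the difference was 1.92. Among the paralogs, Arhgap29 was also lower in KI in TE (-0.70, SE 0.06, adjusted p = 3.68e-07) and ExEn (-0.57, SE 0.06, adjusted p = 6.32e-06), whereas Gmip was higher in TE (0.75, SE 0.13) and not different by test in ExEn (0.02, SE 0.15, adjusted p = 0.94).

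In embryos the direction of Arhgap45 was the opposite. At E9.5 it was at 54.8, 61.8 and 49.9 CPM in KI embryos and 30.7, 35.1 and 44.5 in controls, with no overlap (log2 change 0.59, SE 0.14, adjusted p = 0.00608). At E8.5 it was at 61.3, 61.8 and 70.0 CPM in KI and 46.4, 63.3 and 60.2 in controls, which overlapped (0.18, SE 0.14, adjusted p = 0.53). The difference between the stages was 0.41 (SE 0.20, adjusted p = 0.249) and did not pass. Control embryos fell in Arhgap45 from E8.5 to E9.5 by 0.69 on the log2 scale (SE 0.14, adjusted p = 0.00267). Mean levels of Arhgap45 in E8.5 controls, E9.5 controls and E9.5 KI embryos were 56.6, 36.8 and 55.5 CPM. In that order Nes was at 145, 335 and 134 CPM, Tubb3 at 21.6, 132 and 25.0, and Map2 at 7.87, 22.6 and 6.34. Fabp7 (3.77, 26.9 and 20.6) and Syt1 (0.779, 1.79 and 2.11) were not near the E8.5 level in KI. The part of developmental stage in the Arhgap45 result was not tested. Arhgap29, lower in KI in TE and ExEn, was higher in KI embryos at both stages, by 0.52 (SE 0.13, adjusted p = 0.0338) in the earlier embryos and by 1.09 (SE 0.13, adjusted p = 6.2e-05) in the later ones.

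Csf1r was the member found in TE and ExEn without the other macrophage genes. In TE it was at 7.98 and 11.5 CPM in flox and 20.5 and 22.9 CPM in KI, a rise of 1.19 (SE 0.22, adjusted p = 0.000738) with separate groups. In ExEn it was at 7.80 and 8.38 CPM in flox and 9.47 and 5.40 in KI (-0.15, SE 0.25, adjusted p = 0.692), and without KI clone 48 this value turned to 0.19. The KI effect in TE exceeded that in ExEn by 1.33 (SE 0.33, adjusted p = 0.00771). In all 8 of these libraries Ptprc, C1qa, C1qb and Tyrobp had 0 reads, Spi1 at most 15 reads and Fcer1g at most 10. Only Csf1r and Arhgap45 of the 10 members passed the filter on low counts here, so the count of members called (2 of 2 in TE, 1 of 2 in ExEn, beside 50.9% and 35.5% of all genes) says nothing of the set. Trophoblast is known to express Csf1r, and 4 of 5 trophoblast markers were higher and 1 lower in KI TE. The 4 were Cdx2 (28.5 CPM in flox and 105 in KI), which these cultures also carry as the inducible transgene, Gata3 (17.2 and 63.7), Tfap2c (113 and 258) and Krt8, a keratin of simple epithelia in general (1610 and 2360). Elf5, a trophoblast stem cell factor, was the lower one (17.5 and 1.23). In ExEn, Gata3 was at 20.4 CPM in flox and 74.5 in KI, Tfap2c at 4.96 and 22.2 and Krt8 at 1850 and 2250, all higher in KI. Their part in the Csf1r result was not tested.

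**Figure D5:**
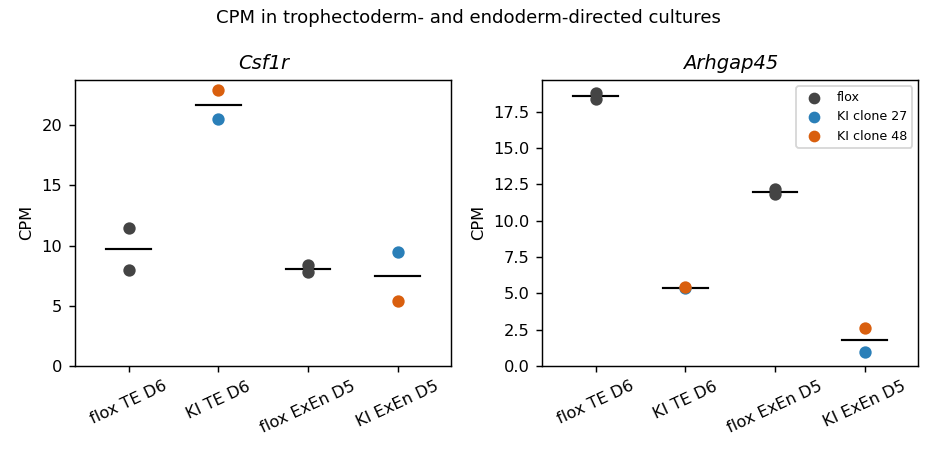
CPM of Csf1r and Arhgap45 in TE and ExEn, 1 point per library (grey for flox, blue for KI clone 27, orange for KI clone 48), with group means as bars. Csf1r is higher in KI TE (20.5 and 22.9 CPM) than in flox TE (7.98 and 11.5) but overlaps in ExEn, and Arhgap45 is lower in KI in both.

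The ligands were present in those cultures. Csf1 was at 115 CPM in both flox TE libraries and 94.9 to 99.6 in KI TE (-0.21, SE 0.07, adjusted p = 0.0178), a call lost without flox replicate 1 (adjusted p = 0.0559) or KI clone 48 (0.0705). In ExEn it was at 184 to 186 CPM in flox and 132 to 146 in KI (-0.44, SE 0.07, adjusted p = 0.00013). Il34 lay between 1.26 and 2.58 CPM in the 8 libraries and did not pass in either culture. In neural day 16 cultures, where Csf1r had at most 9 reads, Csf1 was at 48.1 to 49.9 CPM in flox and 8.17 to 14.5 in KI (-1.92, SE 0.19, adjusted p = 1.14e-05).

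Most members were near the floor in whole embryos. Csf1r was at 2.04, 2.34 and 1.19 CPM in E8.5 controls, 1.46, 1.14 and 1.2 in E8.5 KI, 0.794, 1.71 and 1.12 in E9.5 controls and 2.32, 0.772 and 1.64 in E9.5 KI, and neither stage passed (adjusted p = 0.538 and 0.548). Spi1 lay between 0.166 and 1.25 CPM in the 12 embryos, and its change passed at neither stage (adjusted p = 0.956 at E8.5 and 0.748 at E9.5). Fcer1g was at 0.348, 0.744 and 0.762 CPM in E8.5 controls and 0.177, 0.0454 and 0.089 in KI. These groups did not overlap, yet with 1 to 20 reads per library the change of -2.52 (SE 0.78) did not pass (adjusted p = 0.0666, and 0.0894 with the title number as a block). At E9.5 Fcer1g was at 0.476, 0.557 and 0.447 CPM in controls and 0.0414, 0.30 and 0.354 in KI (-1.09, SE 0.70, adjusted p = 0.26). C1qb had 6 to 10 reads in each E9.5 control and 1 to 4 in each E9.5 KI embryo, too few to be tested, and at most 1 read at E8.5. Ptprc had 0 to 10 reads, Tyrobp 0 to 10, C1qa 0 to 3 and Marco 0 to 2 in any embryo. Of the 5 members tested, none passed at E8.5 (beside 5.46% of all genes; by edgeR, 1 had an unadjusted p under 0.05, Fcer1g) and 2 at E9.5 (Hk3 and Arhgap45, beside 29.5%).

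The wider companion list had genes at 1 CPM or more in libraries where Ptprc was at or near 0. Laptm5 was at 314 CPM in flox and 483 and 525 CPM in KI stem cells, where Ptprc had 1 to 2 reads, and at 211 and 252 CPM in KI ExEn. Between 21 and 25 of the 78 companion genes reached 1 CPM in stem cells, 9 to 24 in neural cultures, 21 to 25 in TE and ExEn and 21 to 27 in embryos, against 66, 53 and 70 in the 3 EB day 10 libraries. Whether leukocytes carried any of the companion levels outside EB day 10 was not tested.

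In neural cultures at day 8, 16 of 39 companion genes tested were lower in KI and 1 was higher (Ikzf1), beside 13.2% and 6.3% of all genes. Their median log2 change was -0.69, or -0.57 with genes near 0 reads set to the floor, beside 0 over all genes. Without KI clone 48 the count was 10. Markers of other cell types differed in the same KI libraries: besides the endothelial and erythroid levels given with Hk3, 5 of 8 mesothelial and stromal markers were lower, with a summed level of 346 CPM in flox and 112 to 158 in KI, and 6 of 9 visceral endoderm markers, with 80.6 to 82.1 in flox and 27.3 to 27.9 in KI. Of the neural lineage itself, 5 of 6 neuron markers were lower (summed level 1030 to 1040 CPM in flox and 685 to 771 in KI), while of 6 neural progenitor markers 3 were higher (Sox1, Sox2 and Neurog2) and 1 lower (1160 to 1180 and 1160 to 1170). Their part in the companion gene values was not tested. Arhgdib (1.93 and 1.99 against 0.184 and 0.225 CPM; adjusted p = 4.1e-06) and Nckap1l (2.53 and 2.79 against 0.512 and 0.574; adjusted p = 2.43e-05), both of which act on the actin cytoskeleton of leukocytes, were lower. Mrc1 was at 10 and 22 reads in flox and 0 and 1 in KI, and lost its call without KI clone 48 (adjusted p = 0.0694). Laptm5 and Coro1a were lower with adjusted p of 0.0154 and 0.0091. Laptm5 lost this call without either flox library or KI clone 48 (0.08 to 0.129), and Coro1a without flox replicate 1 (0.0585) or KI clone 27 (0.104). Runx1, Irf8, Mpeg1 and Itgb2 did not pass, and Cd53, C1qc, Lyz2, Adgre1, Cx3cr1 and Trem2 did not reach the count filter.

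At day 16, 18 of 39 companion genes were lower in KI and 4 higher, beside 19.7% and 27.1% of all genes, with a median of -0.95 beside 0.09. Without KI clone 48 the count fell from 22 to 13. Tnfrsf1b, the second TNF receptor, was at 9.36 and 9.5 CPM in flox and 0.367 and 0.444 in KI (-4.33, SE 0.19, adjusted p = 1.62e-08). Mrc1, the mannose receptor, fell from 1.2 and 2.13 CPM to 0.10 and 0.148 (adjusted p = 4.74e-05), and Unc93b1 from 0.836 and 1.08 to 0.10 and 0.278 (adjusted p = 0.00102). Cd14, the LPS co-receptor, had 32 and 34 reads in flox and 2 and 3 in KI (adjusted p = 0.000217). Runx1 and Irf8 were lower by 2.10 (SE 0.30) and 2.01 (SE 0.20) on the log2 scale in KI, with adjusted p of 0.000151 and 9.42e-06. Coro1a, lower in KI at day 8, was higher at day 16 (23.3 and 29.5 against 20.4 and 23.1 CPM; 0.49, SE 0.14, adjusted p = 0.0123), a call lost without flox replicate 1 (0.0855), without KI clone 48 (0.13) or with only these 4 libraries in the fit (0.0568). Mesothelial and stromal markers were lower beside them, all 8 of 8, with a summed level of 3480 to 3640 CPM in flox and 712 to 923 in KI. All 6 neuron markers were higher in KI, with a summed level of 2690 to 2810 CPM in flox and 4360 to 4790 in KI. Of 9 visceral endoderm markers 3 were lower (Amn, Dab2 and Gata4) and 1 higher (Foxa2), and of 10 endothelial markers 1 was lower (Kdr) and 2 higher (Emcn and Cldn5). Their part in these results was not tested.

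In TE, 12 of 41 companion genes were higher in KI and 3 lower, beside 26.7% and 24.2% of all genes, and the median was 0 beside 0.01. Beside the trophoblast, pluripotency and mesothelial marker levels given above, 3 of 5 neural progenitor markers and all 4 neuron markers tested were lower in KI TE, and 1 neural progenitor marker was higher. Their part in the companion values was not tested. Cebpa, a myeloid factor that trophoblast also uses, was at 7.2 and 8.6 CPM in flox and 68.3 and 79.1 in KI (3.25, SE 0.14, adjusted p = 4.48e-10), and Lcp1 (L-plastin) at 17.6 and 18.4 against 87.6 and 101 (2.42, SE 0.20, adjusted p = 1.37e-05). Hcls1 had 2 reads in each flox library and 52 and 74 in KI (adjusted p = 0.000174), and Aif1 had 19 reads in each flox library and 0 and 2 in KI (adjusted p = 0.00328). Itgb2 was at 1.88 and 1.89 CPM in flox and 0.109 and 0.653 in KI (adjusted p = 0.00872), a call lost without KI clone 27 (0.0611).

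In ExEn, 14 of 41 were higher and 4 lower, beside 18.1% and 17.4%, with a median of 0.51 beside 0. The visceral endoderm markers given with Arhgap45, all 10 lower in KI, moved in the same libraries (Apob from 515 CPM in flox to 0.0505 in KI and Cubn from 452 to 2.25, for example). Of 7 mesothelial and stromal markers tested 4 were lower and 1 higher (summed level 1950 to 2040 CPM in flox and 277 to 447 in KI), and the trophoblast markers Gata3, Tfap2c and Krt8 were higher, as given with Csf1r. The part of these markers in the companion values was not tested. Tfec was at 16.7 CPM in each flox library and at 0 and 0.202 in KI (0 and 4 reads; adjusted p = 7.7e-07, but 0.24 by DESeq2). Runx1 was at 110 and 116 CPM in flox and 55.3 and 72.3 in KI (-0.85, SE 0.11, adjusted p = 5.6e-05), the highest level of this gene in the study. Laptm5 was higher in KI by 2.49 (SE 0.22, adjusted p = 0.000441), and this effect was lower by 2.66 (SE 0.30, adjusted p = 0.00137) in TE. Alox5ap and Il10ra had 0 reads in flox and 7 to 17 and 2 to 14 in KI, at least 3.98-fold and 2.54-fold higher. Both lost the call without either flox library, with adjusted p of 0.0518 to 0.136, and Il10ra also without KI clone 27 (0.291). The call was lost too for Hcls1 without flox replicate 2 (0.13) or KI clone 27 (0.097). Of the 41 genes, 11 differed in KI effect between TE and ExEn (5 above and 6 below), beside 18.3% and 17.0% of all genes (35.3% in either direction), and 5 without flox ExEn replicate 2. Besides Laptm5, those named here are Alox5ap, Aif1 and Mpeg1, and each of the 3 lost the call on leaving out 3 or more of the 8 libraries in turn.

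In embryos at E8.5, 3 of 43 companion genes were higher in KI and 2 lower, beside 3.63% and 1.83% of all genes, and the median was -0.28 beside -0.01. The summed erythroid levels given with Hk3 were lower in the KI embryos and did not overlap, although none of the 10 erythroid markers passed (by edgeR, 9 had an unadjusted p under 0.05), and 5 of 10 endothelial markers were higher (summed level 361 to 429 CPM in controls and 478 to 664 in KI). Of trophoblast markers, Krt8 (381 to 491 CPM in KI against 265 to 343), Gata3 (17.1 to 24.3 against 14.5 to 16.1) and Tfap2c (17.4 to 24.0 against 13.0 to 15.9) were also higher. Cdx2 and Elf5 overlapped between the groups. The part of these markers in the companion values was not tested. The numbers in the embryo titles pair the samples at this stage, and with them as a block 9 companion genes passed, and 1321 of all genes in place of 843. Leaving out any 1 embryo left 0 to 3 companion genes. Mrc1 was at 3.45 to 7.25 CPM in KI and 1.19 to 2.79 in controls (1.53, SE 0.34, adjusted p = 0.0119), and Csf2ra at 12.6 to 17.9 against 7.32 to 11 (0.64, SE 0.16, adjusted p = 0.0192). Alox5ap was higher (0.972 to 2.50 against 0.398 to 0.558 CPM, adjusted p = 0.0456) and Ptpn6, the phosphatase SHP-1, was lower (1.55 to 4.15 against 5.24 to 7.76 CPM, adjusted p = 0.0404). Arhgdib was the other gene lower, with overlapping groups (adjusted p = 0.0492). Each of the first 4 calls was lost on leaving out at least 2 of the 6 embryos in turn.

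At E9.5, 5 of 43 were higher and 5 lower, beside 14.6% and 14.9%, with a median of -0.15 beside 0.01. Without KI replicate 1 the count was 6. Coro1a, an actin regulator of leukocytes, was at 2.32 to 3.76 CPM in KI and 6.95 to 8.65 in controls (-1.36, SE 0.23, adjusted p = 0.000218), and was the companion gene whose KI effect differed between E8.5 and E9.5 (-1.43, SE 0.33, adjusted p = 0.0125, beside 6.63% of all genes, 3.39% higher and 3.24% lower). Ikzf1, the lymphoid and erythroid factor Ikaros, was at 2.83 to 5.04 against 6.39 to 17.3 CPM (-1.48, SE 0.34, adjusted p = 0.00356), and Myb at 1.28 to 3.27 against 4.45 to 6.43 (-1.27, SE 0.35, adjusted p = 0.00974; 0.0544 without control replicate 1). Mrc1 was higher in KI, at 2.27 to 2.39 against 0.297 to 0.626 CPM (2.23, SE 0.40, adjusted p = 0.000334). Laptm5 was lower by 1.31 on the log2 scale (SE 0.40, adjusted p = 0.0211) and lost the call without any of 4 embryos (control replicates 2 and 3, KI replicates 1 and 3; 0.0516 to 0.0786). The erythroid and platelet marker levels given beside Hk3 were lower in the same embryos. Of trophoblast markers, Krt8 (235 to 240 against 73.1 to 174 CPM), Gata3 (22.1 to 23.9 against 8.85 to 12.2) and Tfap2c (20.8 to 30.1 against 13.8 to 16.1) were higher in KI. Cdx2 and Elf5 overlapped between the groups. The part of these markers, and of developmental stage, in the companion values was not tested.

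From E8.5 to E9.5 in controls, 6 of 43 companion genes rose and 7 fell, beside 12.2% and 12.1% of all genes, with a median of 0 beside -0.02. Without control E9.5 replicate 3 the count was 8 in place of 13. The erythroid and Pf4 levels given with Hk3 rose in the same control embryos. Mean levels of Tubb3 rose from 21.6 to 132 CPM, and those of Cdx2 fell from 94.4 to 18.6 and of Krt8 from 298 to 115. Their part in the companion values was not tested. Cebpa rose from 0.744 to 0.857 CPM at E8.5 to 3.45 to 3.76 at E9.5 (2.10, SE 0.29, adjusted p = 3.09e-05) and Coro1a rose by 1.12 (SE 0.23, adjusted p = 0.00135). Mrc1 fell from 1.19 to 2.79 CPM to 0.297 to 0.626 (-2.03, SE 0.40, adjusted p = 0.00093). The rest are near the filter. Vav1 (2 reads per E8.5 library, 9 to 25 at E9.5), Tfec (0.572 to 1.19 against 0.159 to 0.26 CPM) and Was (0.857 to 1.56 against 0.0895 to 0.476) passed with adjusted p of 0.0447, 0.0374 and 0.0178, and each lost the call without at least 2 of the 6 control embryos.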

How the data were processed

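RNA-seq libraries of mouse embryonic stem cells, their derivatives and whole embryos were made from poly(A) RNA, per the labels' protocols. The submitters' processing notes name bcl2fastq, STAR, Bowtie2, SICER 1.1 and the build mm9, without roles, and the counting tool and use of strand are not given in the sources used here. Each of the 37 tables, as deposited by the authors, gives raw read counts per transcript and RPKM values for 29082 RefSeq transcripts, of which 28436 matched a symbol. The transcript with the most reads over all libraries stood for each gene, which kept a median of 71.8% of reads, and CPM was computed over those gene totals. RPKM was used only to compare levels between genes. Other samples of the series, of other assays, were not analysed here.

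The 10 genes and all lists were chosen with earlier results of these data known. Counts were tested with edgeR 4.0.16 (filterByExpr, minimum 10 reads; TMM; robust quasi-likelihood fit) in R 4.3.3, p-values adjusted over all genes at a threshold of 0.05, with the libraries of 1 experiment in each fit. The method was tested on simulated data. Replicates of a group differed by a chi-square of 1.5 (flox neural day 8) to 54.83 per degree of freedom over genes, more than sampling noise, and each was counted as 1 sample. With 1 flox library per EB day, single days were described by the log2 ratio of CPM plus 0.5, and a gene counted as past 2-fold only where both clones were, among genes at 1 CPM or more. Named companion genes were the 5 with the largest change among those called with groups apart, plus 14 fixed ones (Runx1, Irf8, Cd53, Laptm5, Itgb2, Coro1a, C1qc, Lyz2, Adgre1, Cx3cr1, Trem2, Mpeg1, Csf1 and Il34); paralogs are given beside the members, likeness by the 5 highest correlations over 18 group means. A gene that the rule names is not reported here. The other genes and markers named were chosen after their values were seen. Alternatives were RLE size factors, no filter, DESeq2 1.42.0, fits of only both groups, each library left out, replicate blocks, other pseudocounts (0.1 and 1), all table reads as the denominator and sums over transcripts. At E8.5, deviations of the KI and control embryos with the same number in their titles correlated at 0.30, 0.35 and 0.15, so the blocked counts are given beside that comparison. Promoters came from RefSeq (GRCm38.p6), not the build of the tables.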

Additional observations from a re-analysis of the deposited data

Results flagged for a closer look

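The KI effect on Csf1r differed between TE and ExEn by 1.33 on the log2 scale (SE 0.33, edgeR adjusted p = 0.00771). Csf1r was higher in KI in TE (2 of 2 clones above both flox libraries) and overlapped between genotypes in ExEn. Over 12 alternatives the difference kept its sign and its call, with adjusted p from 0.000146 to 0.0427.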

How the results depend on the processing

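Among gene values under the alternatives, 799 kept their direction and side of the threshold, 112 lost a call, 4 gained one and 8 reversed. The reversals were in comparisons where the gene had not passed. Csf1r turned to 0.19 in ExEn without KI clone 48 and to -0.02 at E9.5 without KI replicate 1. Spi1 turned to -0.44 and -0.11 at E8.5 (without KI or control replicate 2), to 0.06 and 0.43 at E9.5 (without KI replicate 1 or control replicate 3), and its stage difference to 0.08 and 0.31 (without KI E8.5 replicate 2 or control E9.5 replicate 3). Leaving out 1 library gave ranges of -0.6 to 0.19 and -0.02 to 0.71 for these Csf1r values, and of -0.44 to 0.45, -1.63 to 0.43 and -1.76 to 0.31 for Spi1 at E8.5, at E9.5 and for the stage difference. The replicate block at E8.5 gave 1321 genes and 9 companion genes. For the stage difference of the KI effect, DESeq2 and the block each gave 2 companion genes in place of 1. In the EB course DESeq2 called 778 genes and 2 companion genes, and 0 companion genes passed without the stem cell libraries. Companion genes past 2-fold at day 10 were 1 with a pseudocount of 1, and at day 4 they were 10 with 0.1, against 3 on each day. The cause of these shifts was not tested.

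Leaving out 1 library at a time gave, for all genes and companion genes, 1896 to 2362 and 10 to 15 (neural day 8), 6028 to 7598 and 13 to 22 (day 16), 6164 to 7469 and 10 to 16 (TE), 3641 to 4967 and 13 to 17 (ExEn), and 4092 to 5532 and 5 to 11 (their difference). In embryos it gave 363 to 755 and 0 to 3 (E8.5), 3281 to 4269 and 6 to 10 (E9.5), 2527 to 3825 and 8 to 12 (control stages) and 607 to 1175 and 1 to 2 (stage difference). In EBs it gave 26 to 332 and 0 to 2 (course) and 9384 to 12365 and 36 to 67 (KI days 10 and 4). An arm left with 1 library was assumed to vary like the others.

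Same-numbered E9.5 embryos correlated at 0 to 0.17, and those with other numbers at -0.17 to -0.03. A weak pairing at this stage is thus neither shown nor excluded, and the labels do not say what the numbers stand for. The KI clones of TE and ExEn are the same clones by their labels (0.25 for each), while the flox libraries share a number (-0.01 for each). The block gave 5950 genes and 12 companion genes for the TE and ExEn difference, and 5293 and 13 at E9.5. Among the named genes of the TE and ExEn difference it changed the call of Arhgap45 alone. At E8.5 it changed no call of a member. Members with few reads in embryos, Hk3 at E8.5 (2 to 7 reads) among them, are imprecise at this depth.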
